A study of Mus musculus with 6 samples.

Results

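The 7 genes for inhibitors of cyclin-dependent kinases (CDK) were examined in mock TuBo cells and in TuBo cells that overexpress p140Cap. They were taken from the 21960 genes of the deposited counts by symbol, as the Cip/Kip family (Cdkn1a, Cdkn1b and Cdkn1c) and the Ink4 family (Cdkn2a, Cdkn2b, Cdkn2c and Cdkn2d). This rule uses names only, but the families were picked with earlier results of these data known. Each symbol matched 1 row. Only 4 of the 7 had enough reads for a test, and the other 3 had none in any library.

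TuBo is a mouse HER2-positive mammary carcinoma line, started from a tumor of a BALB/c mouse in which the MMTV promoter drives the NeuT oncogene. RNA was sequenced from 3 mock libraries (wt in the labels) and 3 libraries of cells overexpressing p140Cap, a scaffold protein encoded by Srcin1, from a retroviral cDNA. Both groups share the NeuT background. p140Cap cells were a pool of clones, each grown from a single cell after puromycin selection, so that selection and cloning cannot be told apart from p140Cap itself. How the mock cells were made was not stated in the text used here. The series describes the samples as mice in one place and as cell lines in another, and does not say whether replicates were separate cultures, so that p-values measure the spread between these libraries, which may be technical.

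CDK inhibitors are small proteins that bind CDKs and slow or stop the cell cycle. Ink4 proteins bind the monomeric kinases Cdk4 and Cdk6 and keep D-type cyclins away from them, whereas Cip/Kip proteins bind whole cyclin-CDK complexes and mainly block Cdk2. Their loss is common in tumors, through deletion or silencing of Cdkn2a and Cdkn2b in many cancers, and through low p27 protein (Cdkn1b) in breast cancer, where HER2 signaling is known to lower p27.

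The mock libraries held 33058719 to 75506562 reads on genes and the p140Cap libraries 13770385 to 15364850, a ratio of medians of 2.62. Srcin1 rose from 15.0 ± 1.96 to 2340 ± 153 CPM (reads per 1000000 of normalized library size; SD, n = 3 libraries each), as the labels state. Of 8 markers of mammary epithelium 7 were tested and none was at 0, with a summed level of 5840 to 6340 CPM in mock and 6550 to 6750 CPM in p140Cap cells. Markers of other cell types were low, with 9.97 to 14.1 CPM over 6 fibroblast genes (Col1a2, Dcn and Lum at 0), 2.04 to 4.09 CPM over leukocyte genes (Ptprc, Adgre1 and Cd3e at 0) and 0.21 to 0.734 CPM over 4 endothelial genes (Kdr at 0). The epithelial, fibroblast and leukocyte sums were higher in each p140Cap library than in any mock library. Only 2 fibroblast genes and 1 leukocyte gene had enough reads for a test, and the highest were Pdgfra and Cd68. The part of these sums in the results was not tested. In bulk RNA, a change in each cell and a change in the share of cells that express a gene cannot be told apart.

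Among detected inhibitors, the transcripts of both Cip/Kip genes were more abundant in p140Cap cells, by 1.62-fold for Cdkn1a and 1.29-fold for Cdkn1b. Neither of the detected Ink4 genes, Cdkn2c and Cdkn2d, passed the test, with fold changes of 1.02 and 1.08. A gene was called where its Benjamini-Hochberg adjusted p, over the 11800 genes tested with the quasi-likelihood method of edgeR, was under 0.05. At that threshold 71.1% of all genes tested were called, 35.2% as higher and 35.9% as lower in p140Cap cells, so that a call by itself does not set a gene apart.

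Cdkn1a (ENSMUSG00000023067; chromosome 17 of GRCm38, 29090979 to 29100722, plus strand) encodes p21, the Cip/Kip inhibitor best known as a target of p53. It was at 47.1, 44.1 and 48.6 CPM in mock cells and at 74.5, 79.8 and 72.4 CPM in p140Cap cells. The lowest p140Cap library was thus well above the highest mock library, although the raw reads (3604, 1754 and 1618 in mock; 1130, 1172 and 986 in p140Cap) were fewer in the shallower libraries. This was a rise of 0.70 ± 0.06 on the log2 scale (SE; adjusted p = 1.02e-08, edgeR), and 9.37% of all genes tested rose by more. Its 95% interval was 1.5-fold to 1.76-fold.

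Cdkn1b (ENSMUSG00000003031; chromosome 6, 134920401 to 134925525, plus strand) encodes p27, which restrains Cdk2 and is removed by ubiquitination as cells enter S phase. It was at 142, 147 and 142 CPM in mock cells and at 182, 186 and 186 CPM in p140Cap cells. The groups did not overlap, as for 73.4% of genes tested. The rise was 0.37 ± 0.04 on the log2 scale (SE; adjusted p = 1.48e-06, edgeR; 95% interval 1.21-fold to 1.38-fold), and 21.8% of genes tested rose by more.

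Cdkn2c (ENSMUSG00000028551; chromosome 4, 109660876 to 109666756, minus strand), the gene of the Ink4 protein p18, was at 38.9, 38.3 and 42.6 CPM in mock cells and at 42.0, 40.4 and 38.9 CPM in p140Cap cells. These values overlapped, and the difference was 0.02 ± 0.06 on the log2 scale (SE; adjusted p = 0.759, edgeR). The 95% interval of 0.930-fold to 1.11-fold does not reach the lower bounds of Cdkn1a and Cdkn1b.

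Cdkn2d (ENSMUSG00000096472; chromosome 9, 21288459 to 21291421, minus strand), which encodes the Ink4 protein p19, was at 37.0, 36.1 and 38.6 CPM in mock cells and at 40.5, 39.8 and 40.2 CPM in p140Cap cells. The values did not overlap, but the log2 fold change was 0.11 (SE 0.05) and missed the threshold (adjusted p = 0.0758, edgeR; 95% interval 0.998-fold to 1.17-fold). It passed when mock replicate 3 was left out (log2 fold change 0.13, adjusted p = 0.0444) and when all libraries were thinned to the smallest total (0.15, adjusted p = 0.0361). The call on Cdkn2d thus changes with these choices.

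**Figure D1:**
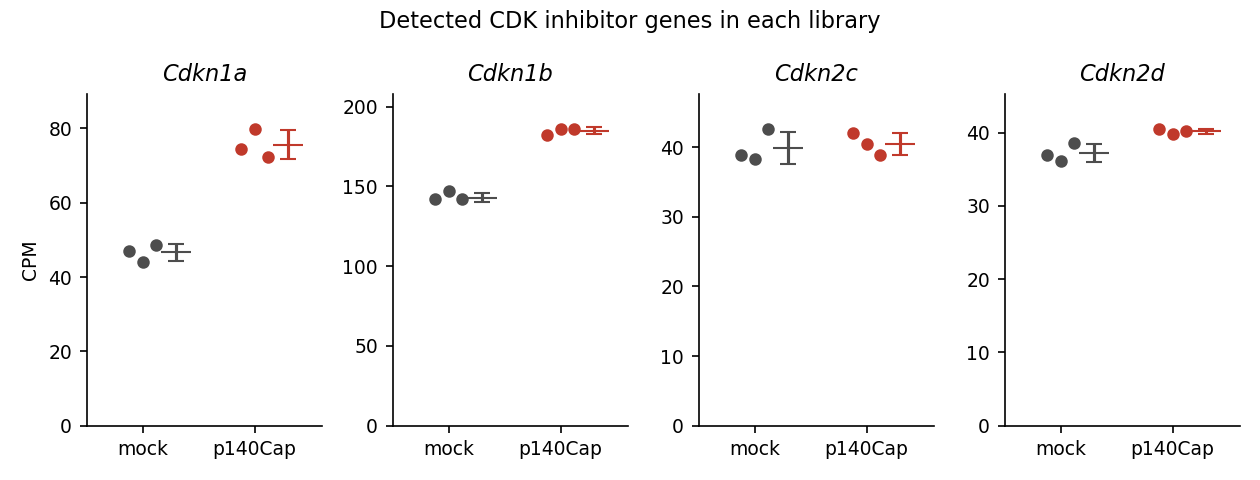
CPM of the 4 detected CDK inhibitor genes in each library (points; mock in grey, p140Cap in red), with mean and SD over 3 libraries beside them. All 3 p140Cap libraries lie above the mock libraries for Cdkn1a (72.4 to 79.8 against 44.1 to 48.6 CPM) and Cdkn1b (182 to 186 against 142 to 147 CPM), the ranges of Cdkn2c overlap, and those of Cdkn2d do not overlap at 36.1 to 38.6 and 39.8 to 40.5 CPM.

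**Figure D2:**
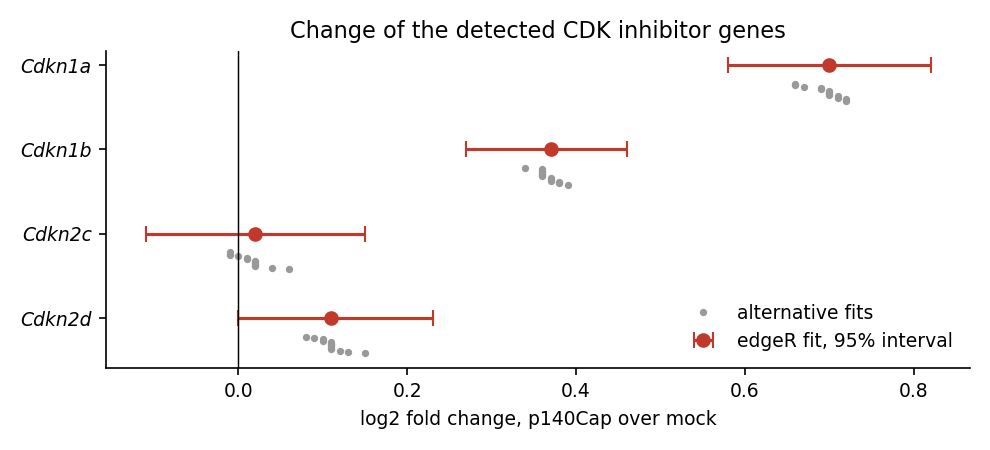
Log2 fold change of p140Cap over mock for the 4 genes, with the 95% interval of the edgeR fit (red) and the values of 13 alternative fits (grey points). Cdkn1a stays between 0.66 and 0.72 and Cdkn1b between 0.34 and 0.39, while Cdkn2c lies on both sides of 0 and Cdkn2d between 0.08 and 0.15.

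Ratios of reads within a library do not depend on its depth or scaling, and were compared for the 6 pairs of detected genes after their values had been seen. There were 0.333, 0.300 and 0.343 reads of Cdkn1a per read of Cdkn1b in mock cells and 0.408, 0.429 and 0.388 in p140Cap cells, a rise of 0.33 on the log2 scale. Against Cdkn2c, Cdkn1a went from 1.21, 1.15 and 1.14 to 1.77, 1.98 and 1.86, and Cdkn1b from 3.64, 3.83 and 3.33 to 4.34, 4.61 and 4.80. Against Cdkn2d the log2 ratio rose by 0.59 for Cdkn1a and by 0.26 for Cdkn1b. Cdkn2c to Cdkn2d differed least, with a log2 ratio lower by 0.09 in p140Cap cells (1.05, 1.06 and 1.10 against 1.04, 1.01 and 0.965). The libraries of both groups did not overlap for any of the 6 pairs, which come from 4 genes and are not independent. By CPM, 73.4% of single genes did not overlap either, and no such share is given for pairs of genes. Each pair gave p = 0.1 (two-sided exact permutation test, n = 3 libraries each), also after adjustment over the 6 pairs. This is the smallest p that 3 against 3 libraries allow.

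To compare levels between genes, CPM were divided by the length of the merged exons. Cdkn1b was the most abundant inhibitor transcript, at 31.5 ± 0.662 CPM per kb in mock and 40.6 ± 0.505 in p140Cap cells (SD, n = 3 each). Cdkn2d followed at 22.4 ± 0.746 and 24.2 ± 0.208 CPM per kb, then Cdkn1a at 7.71 ± 0.378 and 12.5 ± 0.633 and Cdkn2c at 6.28 ± 0.360 and 6.36 ± 0.246. The order was the same in both groups, and neighbors in it differed by more than the spread between libraries.

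Summed over the family, the level was 67.3, 67.3 and 69.1 CPM per kb in mock and 83.4, 84.5 and 83.3 CPM per kb in p140Cap libraries. Most of the difference came from the Cip/Kip genes, which together were at 39.2 ± 0.334 CPM per kb in mock and 53.1 ± 0.894 in p140Cap cells, while the Ink4 genes were at 28.7 ± 1.10 and 30.5 ± 0.383 (SD, n = 3). The ratio of Cip/Kip to Ink4 level was 1.37 ± 0.0575 in mock and 1.74 ± 0.0475 in p140Cap cells. As a share of the pool, Cdkn1a was at 11.4% ± 0.446 in mock and 14.9% ± 0.638 in p140Cap cells and Cdkn1b at 46.4% ± 1.44 and 48.6% ± 0.574. Cdkn2d made up 33.0% ± 0.668 and 28.9% ± 0.459 and Cdkn2c 9.25% ± 0.391 and 7.59% ± 0.297. A lower share of the Ink4 genes does not mean a lower level, as the values of both genes above show.

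**Figure D3:**
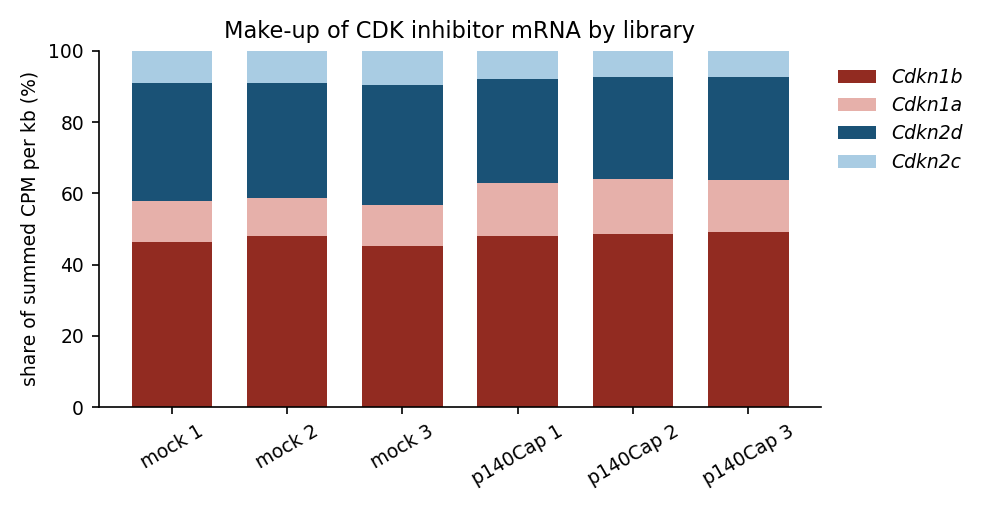
Share of each gene in the summed CPM per kb of the 7 inhibitor genes, by library. Cdkn1a and Cdkn1b (red shades) take 11.4% and 46.4% on average in mock and 14.9% and 48.6% in p140Cap libraries, and Cdkn2d and Cdkn2c (blue shades) take the rest, since the other 3 genes have no reads.

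Cdkn2a, Cdkn2b and Cdkn1c had 0 reads in each of the 6 libraries, that is, 0 of 191718553 reads, which allows a level of up to 0.0156 CPM over all libraries (a limit of 3 reads, counting error only). Within a group the limits are 0.0203 CPM for mock and 0.0681 CPM for p140Cap cells. Cdkn2d, the detected inhibitor with the lowest mean CPM, was 1830 times above the limit in mock and 590 times above it in p140Cap cells. No comparison between groups can be made for these 3 genes. Among all genes listed, 27.8% had 0 reads in every library.

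Cdkn2a (ENSMUSG00000044303; chromosome 4, 89274473 to 89294619, minus strand) gives rise to p16Ink4a and, from another first exon and reading frame, to p19Arf, which stabilizes p53. Counts per gene do not separate these transcripts, but a count of 0 covers both. Cdkn2b (ENSMUSG00000073802; 89306289 to 89311032, minus strand) is its neighbor and encodes the Ink4 protein p15, a known target of TGF-β. Cdkn2b not counted, 36 other genes listed start within 1000 kb of Cdkn2a, and 26 of them also had 0 reads in every library, most of them type I interferon genes. Distances here run between the lowest coordinates of genes, whatever the strand. On the lower side, Mtap, a gene of methionine salvage 137 kb below Cdkn2a, was well expressed. Mtap had 3273, 1815 and 1438 reads in mock and 517, 493 and 445 reads in p140Cap cells. It was at 43.9 ± 1.55 and 33.4 ± 0.705 CPM (SD, n = 3 each), a difference of -0.39 on the log2 scale (SE 0.06, adjusted p = 1.05e-05, edgeR). On the other side, Dmrta1, 414 kb away, was at 0 in all libraries, and Zfp352 had 1 read in mock replicate 1 and none elsewhere. Of the 4 tested neighbors of Cdkn2a, 2 were higher in p140Cap cells and 1, Mtap, was lower. Over all genes tested, 35.2% were higher and 35.9% lower. The higher genes were Gm13290 at 1.41 (SE 0.28) and Gm13285 at 0.72 (SE 0.29) on the log2 scale. Mtap, Dmrta1, Zfp352, Gm13290 and Gm13285 were named after their values were seen. Whether the absence of reads goes with missing DNA or with silent genes was not tested.

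**Figure D4:**
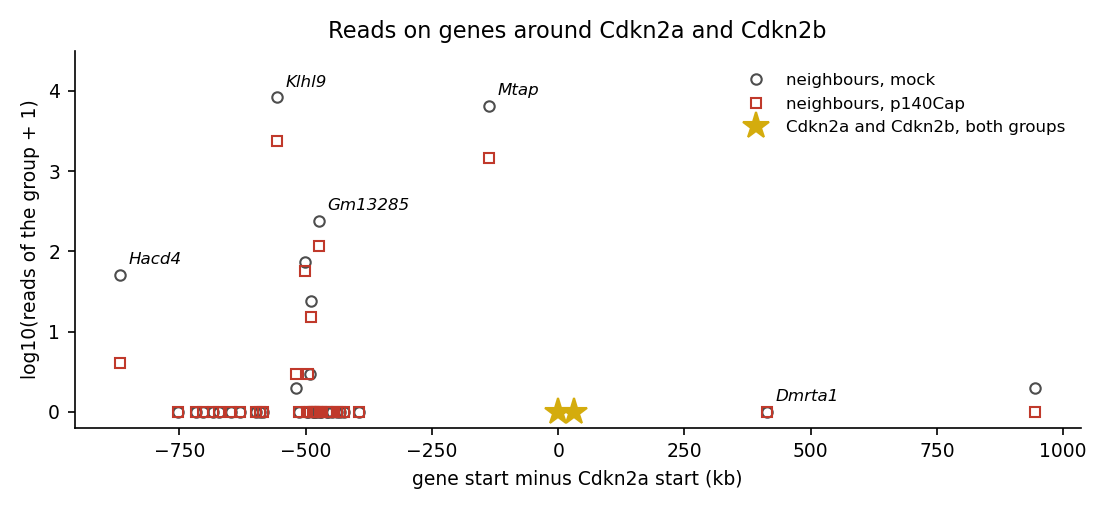
Reads summed over the 3 libraries of each group, as log10(reads + 1), for 36 genes within 1000 kb of Cdkn2a, Cdkn2b not counted. They are plotted against the distance in kb of their lowest coordinate from that of Cdkn2a. Stars mark Cdkn2a and Cdkn2b at 0. Mtap at -137 kb and Klhl9 at -556 kb have over 1000 reads in both groups, while Cdkn2a, Cdkn2b and Dmrta1 at 414 kb have none.

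Cdkn1c (ENSMUSG00000037664; chromosome 7, 143458339 to 143461059, minus strand) encodes p57 and is an imprinted gene, expressed from the maternal allele. Genes around it ranged from well read to nearly unread. Nap1l4, at 55.2 kb, was at 169 ± 3.27 CPM in mock and 165 ± 3.57 CPM in p140Cap cells (SD, n = 3 each). Phlda2, another imprinted gene 43.2 kb away, had 225, 131 and 110 reads in mock and 49, 40 and 38 reads in p140Cap cells (log2 fold change -0.11, SE 0.15, adjusted p = 0.567, edgeR), and Slc22a18, at 15.4 kb, had 76, 27 and 33 reads against 28, 12 and 19 (0.59, SE 0.28, adjusted p = 0.0717). On the other side, Cd81, at -406 kb, was well read, at 532 ± 15.9 CPM in mock and 846 ± 15.8 CPM in p140Cap cells. Some imprinted genes on that side had almost no reads. Kcnq1 had 2 and Igf2 had 1 over the mock libraries, and both had 0 in p140Cap cells. Ins2 was at 0 in all 6 libraries. These genes were chosen after their values were seen. In all, 16 of its 26 neighbors were tested, of which 5 were higher and 4 lower, against 71.1% called over all genes tested.

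The 250 bases before the RefSeq starts (GRCm38.p6) are shown for the genes that rose and for the adjacent genes without reads, with the GC box GGGCGG, found on either strand (CCGCCC), in capitals. This box is bound by Sp1 and related factors. Cdkn2a has 2 starts, the one farther upstream being that of p19Arf, and of the 2 starts of Cdkn1a the one with more CpG is shown.
Cdkn1a (chr17:29093519-29093768, plus strand): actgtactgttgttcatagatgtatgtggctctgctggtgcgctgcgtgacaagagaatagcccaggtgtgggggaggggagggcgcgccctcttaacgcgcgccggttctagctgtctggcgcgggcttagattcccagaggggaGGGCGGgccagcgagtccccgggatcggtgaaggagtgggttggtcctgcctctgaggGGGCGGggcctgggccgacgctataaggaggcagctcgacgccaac
Cdkn1b (chr6:134920151-134920400, plus strand): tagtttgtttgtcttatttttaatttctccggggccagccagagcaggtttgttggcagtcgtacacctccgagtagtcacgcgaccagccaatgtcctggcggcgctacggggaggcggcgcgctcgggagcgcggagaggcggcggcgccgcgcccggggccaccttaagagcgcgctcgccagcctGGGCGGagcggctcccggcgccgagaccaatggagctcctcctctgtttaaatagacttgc
Cdkn2a, p19Arf start (chr4:89294620-89294869, minus strand): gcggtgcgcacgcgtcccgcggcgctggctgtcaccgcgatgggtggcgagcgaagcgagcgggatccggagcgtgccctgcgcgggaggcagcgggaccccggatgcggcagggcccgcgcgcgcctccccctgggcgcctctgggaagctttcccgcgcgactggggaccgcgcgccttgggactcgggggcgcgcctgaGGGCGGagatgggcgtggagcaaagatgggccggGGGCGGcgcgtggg
Cdkn2a, p16Ink4a start (chr4:89282193-89282442, minus strand): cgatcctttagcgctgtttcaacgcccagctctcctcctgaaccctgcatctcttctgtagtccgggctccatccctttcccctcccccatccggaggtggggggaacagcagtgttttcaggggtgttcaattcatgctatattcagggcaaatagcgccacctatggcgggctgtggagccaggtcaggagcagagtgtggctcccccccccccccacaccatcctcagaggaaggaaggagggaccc
Cdkn2b (chr4:89311033-89311282, minus strand): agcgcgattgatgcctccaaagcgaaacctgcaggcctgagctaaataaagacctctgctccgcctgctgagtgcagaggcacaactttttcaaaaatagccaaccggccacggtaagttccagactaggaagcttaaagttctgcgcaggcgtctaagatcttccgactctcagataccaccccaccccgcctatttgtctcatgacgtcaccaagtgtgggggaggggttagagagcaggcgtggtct

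GGGCGG was found in 5 of the 9 windows of the family and in 32.7% of 32851 promoters of the same length. It occurred 2 times before this start of Cdkn1a and 1 time before Cdkn1b. Cdkn2d and the CpG-rich start of Cdkn2c had it 3 times each, and the p19Arf start 2 times. It was not found before the other starts of Cdkn1a and Cdkn2c, the p16Ink4a start or Cdkn2b. The box was thus present in some windows, and missing from others, both for genes with reads and for genes without reads. CCAAT was in 2 of the 9 windows (Cdkn1b and Cdkn2d) against 33.8% of all promoters, and the E-box CACGTG and TATAAA were in none, against 6.02% and 12.4%. The number of CpG dinucleotides was 28 for Cdkn1b, 19 for the start of Cdkn1a shown and 2 for its other start, 40 for the p19Arf start, 7 for the p16Ink4a start and 12 for Cdkn2b, where the median promoter has 6. Cdkn1c is not in this table.

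The genes that the inhibitors act on and those that regulate them were described by lists, each to be read against 71.1% called, 35.2% higher and 35.9% lower over all genes tested. Of 11 genes for CDKs and cyclins, all tested, 9 fell, 0 rose and 2 did not pass the test, with a median log2 fold change of -0.40, against 0.00 over all genes tested. Cdk2, the main kinase held by p21 and p27, fell by 0.43 on the log2 scale (85.1 ± 3.33 against 63.0 ± 2.24 CPM; SE 0.05, adjusted p = 1.28e-06, edgeR). The Ink4 partners Cdk4 and Cdk6 fell by 0.25 (SE 0.04, adjusted p = 9.79e-05) and by 0.19 (SE 0.05, adjusted p = 0.0046). Among cyclins, the largest decreases were those of Ccnd2 (log2 fold change -5.95, 1494, 724 and 606 reads in mock against 5, 7 and 1), Ccne1 (-2.59) and Ccne2 (-1.43), of which the E-type cyclins are the partners of Cdk2 at S phase entry. Ccnd1, the most abundant D-type cyclin transcript at 296 CPM per kb in mock and 299 in p140Cap cells, and Ccnd3 were both at 0.02.

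Among 8 genes for pocket proteins and E2F factors, which carry the signal of CDK activity to transcription, 5 fell, 2 rose and 1 was not called (median -0.44), where 35.9% of all genes tested fell and 35.2% rose. The genes that rose were Rbl2 (0.73, SE 0.05, adjusted p = 4.86e-09, edgeR) and Rb1 (0.47, SE 0.06, adjusted p = 3.79e-06), whose proteins hold E2F factors in quiescent and G1 cells. E2f1 fell by 0.75 (SE 0.06, adjusted p = 1.92e-08) and the third pocket protein gene, Rbl1, by 0.66 (SE 0.05, adjusted p = 1.1e-08).

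Of 13 genes around the turnover of Cip/Kip proteins, 10 fell, 1 rose and 2 were not called (median -0.29). Skp2, which brings p27 to its ubiquitin ligase, was at 49.4 ± 2.54 CPM in mock and 24.3 ± 1.14 CPM in p140Cap cells (SD, n = 3 each) and fell by 1.03 (SE 0.06, adjusted p = 4.72e-10, edgeR). Cks1b, its cofactor in binding p27, fell by 0.52 (SE 0.06, adjusted p = 5.13e-07), and Pcna, the replication clamp bound by p21, by 0.94 (SE 0.05, adjusted p = 1.49e-10). Cul1, the scaffold of the Skp2 ligase, was the gene that rose, at 0.18 (SE 0.05, adjusted p = 0.00554). Levels of p21 and p27 protein were not part of these data.

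Of 17 transcription regulators known to activate inhibitor genes 16 were tested, and 11 rose, 3 fell and 2 were not called (median 0.27). The largest changes were those of Egr1 (1.26), a factor induced early by growth factors and stress, and of Foxo3 (0.86) and Foxo4 (0.70), forkhead factors known to activate Cdkn1b when AKT is low. Trp53 moved against the list, from 114 ± 0.214 to 78.8 ± 5.42 CPM (log2 fold change -0.54, SE 0.05, adjusted p = 1.25e-07, edgeR). Klf4 had too few reads for the test.

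Of 15 regulators known to repress inhibitor genes 14 were tested, and 6 fell, 3 rose and 5 were not called (median -0.09), against 35.9% lower and 35.2% higher over all genes tested. Id1, an inhibitor of E proteins, fell by 1.19 and Myc, which represses Cdkn1a and Cdkn2b, fell by 0.73 (SE 0.06, adjusted p = 8.18e-09, edgeR). Cbx7, a Polycomb protein known to silence Cdkn2a, rose from 5.37 ± 0.278 to 11.2 ± 1.07 CPM (log2 fold change 1.05, SE 0.10, adjusted p = 7.3e-08). Other Polycomb genes of the list went the other way or were not called. Bmi1 fell by 0.65, Ezh2 by 0.34, Suz12 by 0.29 and Eed by 0.24 on the log2 scale, all called, while Cbx8 at 0.00, Rnf2 at -0.11, Ring1 at 0.08 and Kdm2b at -0.04 were not. These 8 genes were named after their values were seen.

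Cdkn1a is also a p53 target. Of 21 other such genes 18 were tested, and 8 rose, 7 fell and 3 were not called, with a median log2 fold change of -0.04, against 35.2% higher and 35.9% lower over all genes tested. The part of p53 in the rise of Cdkn1a was not tested. Trp53inp1, a p53 cofactor in stress, rose by 1.18 (SE 0.07, adjusted p = 2.25e-10, edgeR), whereas Aen, a nuclease of apoptosis, was at -2.16 (SE 0.09, adjusted p = 4.94e-12) and Fas, a death receptor with few reads, at -1.18 (SE 0.26, adjusted p = 0.000651).

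**Figure D5:**
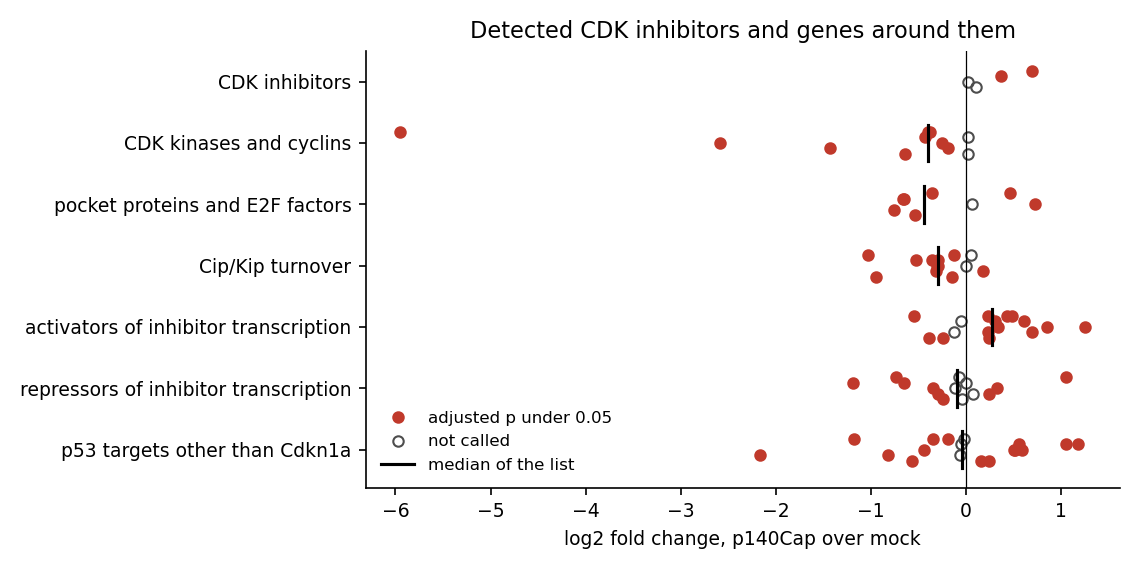
Log2 fold change of p140Cap over mock for the 4 detected CDK inhibitor genes and for each tested gene of 6 lists around them; filled points passed an adjusted p under 0.05 (edgeR), and bars give list medians. The medians are -0.40 for kinases and cyclins, -0.44 for pocket proteins and E2F factors, -0.29 for Cip/Kip turnover, 0.27 for activators, -0.09 for repressors and -0.04 for p53 targets.

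The genes around the detected inhibitors are described by counts, without a test between neighborhoods, beside 35.2% higher and 35.9% lower over all genes tested. Of the 13 tested genes that start within 1000 kb of Cdkn1b, 10 were higher and 2 lower in p140Cap cells, with log2 fold changes of up to 2.32 (median 0.47), where Cdkn1b itself was at 0.37. No fold is given for Gprc5a, one of the lower genes, which had 0 reads in each p140Cap library. Within 500 kb the median was 0.67. Their part in the change of Cdkn1b was not tested. Around Cdkn1a, 13 of 27 tested genes were higher and 10 lower, with a median of 0.12. Around Cdkn2c 4 of 10 were higher and 2 lower (median -0.04), and around Cdkn2d 13 of 51 were higher and 23 lower (median -0.09).

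Over the 6 libraries, the pattern most like that of a member was sought among 10719 tested genes, as the smallest mean absolute difference of centered log2 CPM. For Cdkn1a these were Golga2, a Golgi matrix protein (difference 0.0132, log2 fold change 0.71), and Ly6g6e (0.0173 and 0.73), and for Cdkn1b Pttg1ip (0.0126 and 0.38) and Ppfibp2 (0.0128 and 0.35). For Cdkn2c they were Dhps, the deoxyhypusine synthase (0.0208 and 0.06), and Ctdsp1 (0.0215 and 0.02), and for Cdkn2d Psmd10 (0.0120 and 0.09) and Pigu (0.0124 and 0.10).

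GENCODE lists a long non-coding RNA gene or other transcript on the other strand over Cdkn1a (Gm64878 and Dino), Cdkn1b (Gm44238), Cdkn2c (Gm68465 and Gm57073) and Cdkn2d (Gm69914). The libraries were stranded, but the sources used here do not say if reads were counted by strand, so that reads of these partners may be included.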

How the data were processed

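RNA-Seq of 3 mock and 3 p140Cap TuBo libraries was used. Per the paper, libraries were stranded (Illumina TruSeq) and sequenced on an Illumina NextSeq, with data processing in docker4seq, and the labels add poly(A) selection. The authors deposited counts, whole-number reads per gene and library, without normalization. The submitters' processing notes name STAR 2.5, RSEM 0.1.1 and mm10 (GRCm38), while the paper names GRCm39 as mouse genome. The sources used here give neither counting settings nor annotation release.

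Counts were analysed in R 4.3.3 with edgeR 4.0.16 (filterByExpr by group, TMM factors, quasi-likelihood test with condition as the sole term), with Benjamini-Hochberg adjustment over all genes tested and a threshold of 0.05. CPM refer to TMM-adjusted library sizes, SE is the absolute log2 fold change over the square root of F, and 95% intervals use the test's degrees of freedom. Scripts were tested on simulated counts. The common coefficient of biological variation was 4.57%. No library repeated another, since the mean chi-square between libraries of a group was 1.75 to 10.7, where sampling noise gives about 1. Positions come from RefSeq GRCm38.p6 by symbol (99.1% of genes tested matched), lengths and overlaps from GENCODE by Ensembl identifier (99.6%), and promoters from RefSeq. For distances between genes, the start of a gene is its lowest coordinate, whatever the strand.

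Members, lists and tests were chosen with earlier results of these data known. Named genes are all members, Srcin1, up to 3 called genes per list with the largest change, Trp53, Myc, Skp2, Rb1, Cdk2, Cdk4 and Cdk6, and 2 genes most alike per tested member (mean log2 CPM of at least 1, prior count 2). Ccnd1, Ccnd3, Cul1, Klf4 and genes near the members were named after their values were seen. Skp1 was listed under 2 symbols and counted once. A marker gene is not reported here. Alternatives were DESeq2 1.42.0, RLE factors, no filter, a minimum of 10 reads per library, limma-voom (limma 3.58.1), each library left out, a replicate block, and thinning to 13770385 reads.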

Additional observations from a re-analysis of the deposited data

How the results depend on the processing

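Cdkn1a and Cdkn1b were called higher under all 13 alternatives, with log2 fold changes of 0.66 to 0.72 and 0.34 to 0.39, and the number of inhibitor genes called was 2 or 3. Over the alternatives the adjusted p of Cdkn2d lay between 0.0361 and 0.284. It was called with libraries thinned to the smallest total (log2 fold change 0.15) and without mock replicate 3, and with each library left out in turn its log2 fold change was 0.09 to 0.13. For thinning, the cause was not tested. Cdkn2c, never called, changed sign to -0.01 without a filter on low counts, and lay between -0.01 and 0.06 with each library left out (negative without mock replicate 1 at -0.000593, without mock replicate 2 and without p140Cap replicate 1). Ctdsp1, whose pattern is like it, was at -0.01 without the filter and between -0.01 and 0.05 with libraries left out, with -0.00329 without p140Cap replicate 2. With the longest transcript as gene length, the gain in share of Cdkn1a was 4.62 percentage points, against 3.58. Within 500 kb in place of 1000 kb, the median log2 fold change of neighbors was 0.06 for Cdkn1a, 0.67 for Cdkn1b, -0.01 for Cdkn1c, -0.39 for Cdkn2b (1 gene, Mtap) and -0.21 for Cdkn2d, against 0.12, 0.47, 0.07, 0.35 and -0.09. For Cdkn2a this median was 0.17 (2 genes tested) against 0.35, and for Cdkn2c 0.0 against -0.04. Replicate numbers did not pair the libraries, with correlations of deviations of -0.0299, -0.106 and -0.0573 for equal numbers. With the replicate block 8034 genes were called in place of 8388, and no call on an inhibitor gene changed. In all, 603 of 618 values under an alternative kept their direction and call or, where no test was made, moved by less than 1 SD between libraries or, for counts of calls, by at most 1.5 times. The p140Cap libraries limit the precision for rare transcripts.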

Other observations

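Near Cdkn1b on chromosome 6, some neighbors differed far more than Cdkn1b itself; they are given as values, chosen after these were seen. Gprc5a, an orphan receptor gene 145 kb away, had 192, 68 and 92 reads in mock libraries and 0 in each p140Cap library. Hebp1, a heme-binding protein gene at 217 kb, had 250, 138 and 99 reads in mock and 228, 244 and 234 in p140Cap libraries, a rise of 2.32 on the log2 scale (SE 0.10, adjusted p = 5.62e-12, edgeR). Ddx47, an RNA helicase gene that lies between Cdkn1b and Gprc5a, was at 0.01 (SE 0.05, adjusted p = 0.831, edgeR).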
